A study of Mus musculus with 24 samples.

Results

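Transcripts of 10 genes of the endoplasmic reticulum (ER) stress response and the integrated stress response were followed in mouse liver, out of 24411 genes counted. The 10 genes, Atf4, Ddit3, Atf5, Trib3, Chac1, Asns, Xbp1, Hspa5, Dnajb9 and Herpud1, were taken by symbol from the deposited read counts of 24 whole-liver RNA-seq libraries. All mice were males of 2.5 months, fasted for about 16 h. In the LKO cohort, E2f7 and E2f8, which encode repressors of the cell cycle, were deleted in LKO mice (E2f7/E2f8 loxP/loxP, R26R mTmG, Alb-Cre, mixed and mostly FVB background), so that the deletion was driven by the albumin promoter from early life. Their controls, labelled WT in the sample list, were littermates with the floxed alleles and without Cre, and 4 control and 4 LKO mice were sequenced singly at 0 h. Livers were also taken 12, 24, 48, 72 and 96 h after 300 mg/kg acetaminophen (APAP), a drug that injures hepatocytes in overdose, and RNA from 3 mice was pooled into 1 library per genotype and time. In the HKO cohort, 3 adult floxed mice received AAV8-TBG-Cre (HKO), a virus whose TBG promoter drives Cre in hepatocytes, and 3 received AAV8-TBG-Null (HKO-cohort control), and all 6 were taken at 0 h.

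In ER stress, unfolded proteins in the ER lumen are sensed by 3 membrane proteins, IRE1, PERK and ATF6. IRE1 splices Xbp1 mRNA, ATF6 is cleaved into a transcription factor, and both raise genes for chaperones such as BiP (Hspa5) and for ER-associated degradation, the removal of misfolded proteins, such as Herpud1. PERK and other kinases phosphorylate eIF2α in the integrated stress response, which lowers translation in general and favors translation of ATF4. ATF4 and its partners, among them CHOP (Ddit3), raise genes for amino acid synthesis and uptake (Asns), for glutathione turnover (Chac1) and for feedback (Trib3). In the liver these pathways are known from amino acid shortage, secretory load and drug injury. The counts do not separate spliced from unspliced Xbp1, and they do not measure translation of Atf4, Ddit3 or Atf5.

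Promoters of the genes were searched for elements known to be bound by these factors, in the 300 bases from 250 before to 50 after each start site (RefSeq, GRCm38.p6). The elements were the ER stress response elements ERSE (CCAAT and CCACG with 9 bases of any kind between them) and ERSE-II (ATTGG and CCACG with 1 base between them), the C/EBP-ATF response element CARE (TGATGNAA) and the XBP1 element UPRE (TGACGTGG), on both strands. All 10 genes had a promoter, with 11 promoters in all because Atf5 has more than 1. ERSE was found in 1 of the 10 genes (Hspa5) and in 0.119% of 32851 promoters, and ERSE-II in 1 gene (Herpud1) and in 0.0365% of promoters. CARE was found in 4 genes (Asns, Chac1, Herpud1 and Trib3) and in 3.97% of promoters. UPRE was in none of the 10 genes and in 0.676% of promoters. The promoters of Hspa5 and Herpud1, and those of Asns and Chac1, which share CARE but had opposite changes after APAP, are shown 5′ to 3′ with the matched elements in capitals. No match overlapped another. A match is a stretch of letters and was not tested for binding.
Hspa5, chr2:34771840-34772139, plus strand: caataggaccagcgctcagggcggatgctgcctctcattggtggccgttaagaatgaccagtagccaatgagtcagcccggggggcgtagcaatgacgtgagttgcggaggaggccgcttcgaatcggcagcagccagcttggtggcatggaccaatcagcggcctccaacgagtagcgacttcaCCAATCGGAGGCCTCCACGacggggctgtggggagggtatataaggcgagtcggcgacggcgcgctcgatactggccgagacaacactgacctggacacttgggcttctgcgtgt
Herpud1, chr8:94386179-94386478, plus strand: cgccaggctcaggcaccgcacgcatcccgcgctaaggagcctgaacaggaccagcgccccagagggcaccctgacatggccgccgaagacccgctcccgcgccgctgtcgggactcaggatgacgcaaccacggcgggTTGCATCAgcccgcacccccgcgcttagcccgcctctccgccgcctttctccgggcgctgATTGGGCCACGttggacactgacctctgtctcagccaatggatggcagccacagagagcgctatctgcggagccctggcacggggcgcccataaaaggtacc
Asns, chr6:7693160-7693459, minus strand: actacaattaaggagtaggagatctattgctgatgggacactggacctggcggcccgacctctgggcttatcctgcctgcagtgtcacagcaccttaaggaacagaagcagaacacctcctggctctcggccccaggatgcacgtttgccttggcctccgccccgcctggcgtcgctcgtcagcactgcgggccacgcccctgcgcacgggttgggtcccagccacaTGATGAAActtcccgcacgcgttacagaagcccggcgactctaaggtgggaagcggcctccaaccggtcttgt
Chac1, chr2:119350992-119351291, plus strand: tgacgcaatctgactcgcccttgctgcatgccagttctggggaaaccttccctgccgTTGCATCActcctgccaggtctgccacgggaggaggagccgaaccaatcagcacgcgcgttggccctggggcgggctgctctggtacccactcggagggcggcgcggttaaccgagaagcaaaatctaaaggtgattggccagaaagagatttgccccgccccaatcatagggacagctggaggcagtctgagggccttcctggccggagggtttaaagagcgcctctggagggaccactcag
In Hspa5 the ERSE began 65 bases before the start site. In Herpud1 the ERSE-II began 52 bases and the CARE 112 bases before it. The CARE began 23 bases before the start site in Asns and 193 bases before it in Chac1.

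Reads on genes ranged from 12665686 to 19499897 per library. The detection floor was taken as 3 counts, which correspond to 0.154 to 0.237 CPM before TMM scaling, for counting error only. CPM are the reads of a gene relative to all reads on genes, and elsewhere they are scaled by TMM. The hepatocyte markers Alb, Apoa1, Ttr, Cps1 and Cyp2e1 were detected in all 24 libraries and summed to 44600 to 126000 CPM. Summed macrophage markers (5 of 5 found) reached 510 CPM and stellate cell markers (5 of 5) 689 CPM in the control pools, from at most 162 and 66.4 CPM in control mice at 0 h. In the LKO pools they reached 491 and 338 CPM, from at most 244 and 47.0 CPM in LKO mice at 0 h. Whole-gene counts of E2f8 were higher, not lower, in the HKO libraries (30.7 to 83.9 CPM, against 15.2 to 26.4 in their controls) and in the LKO pools (14.6 to 46.7 CPM, against 4.15 to 13.9). E2f7 did not exceed 4.33 CPM. Because the deleted exons cannot be separated from the rest of the gene, these counts do not check the labels. Exon-level counts, from which the study examined the deletion in HKO livers, were not analysed here. HKO and LKO, the study's names, stand throughout for libraries labelled CRE and KO in the sample list. Whole-liver RNA cannot tell fewer cells of a type from less RNA per cell.

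At 0 h the 10 transcripts spanned a wide range of abundance. Per kilobase of annotated exon, Herpud1 was the most abundant, with a median of 392 CPM per kb over the 14 mice (217.6 to 632), followed by Hspa5 (259, from 170.3 to 685) and Atf5 (178, from 138 to 313), and these ranges overlapped. Xbp1 (73.9), Dnajb9 (41.1) and Atf4 (40.6) were intermediate, and their ranges overlapped. Trib3 (7.27), Ddit3 (5.95) and Chac1 (5.57) were low, and their ranges overlapped. Asns had 0.191 CPM per kb, with 1 to 10 reads in 10 of the 14 mice and 23 to 60 reads in the other 4. Ddit3 shares 68 exon bases with Mars, and Atf5 shares 82 with Nup62 and Il4i1, on the opposite strand. Reads there are not counted without strand, and the stranded columns together gave 1.08 to 1.55 times the Ddit3 count and 1.18 to 1.42 times the Atf5 count, but the same count for the other 8 genes.

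Single livers differed more in several of these transcripts than in most genes. Over the 8 mice of the LKO cohort at 0 h, the median gene had a highest value 1.82 times its lowest. Hspa5, the ER chaperone BiP (chromosome 2 of GRCm38, from 34771970 to 34777547), had 1551, 2587, 2899 and 814 CPM in the control mice and 2287, 805, 812 and 1584 CPM in the LKO mice, a 3.60-fold range. The lowest 3 of these livers, 1 control and 2 LKO, lay within 10 CPM of each other. Dnajb9, a co-chaperone of BiP (chromosome 12, 44205559 to 44210326), ranged 3.38-fold, from 65.8 to 223 CPM. Trib3, a pseudokinase in the feedback on ATF4, ranged 4.41-fold (8.38 to 37.0 CPM) and Chac1, a glutathione-degrading enzyme, 3.86-fold (7.05 to 27.2 CPM). Atf5 (1.53-fold), Atf4 (1.93-fold) and Herpud1 (2.01-fold) were closer to the median gene.

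**Figure D1:**
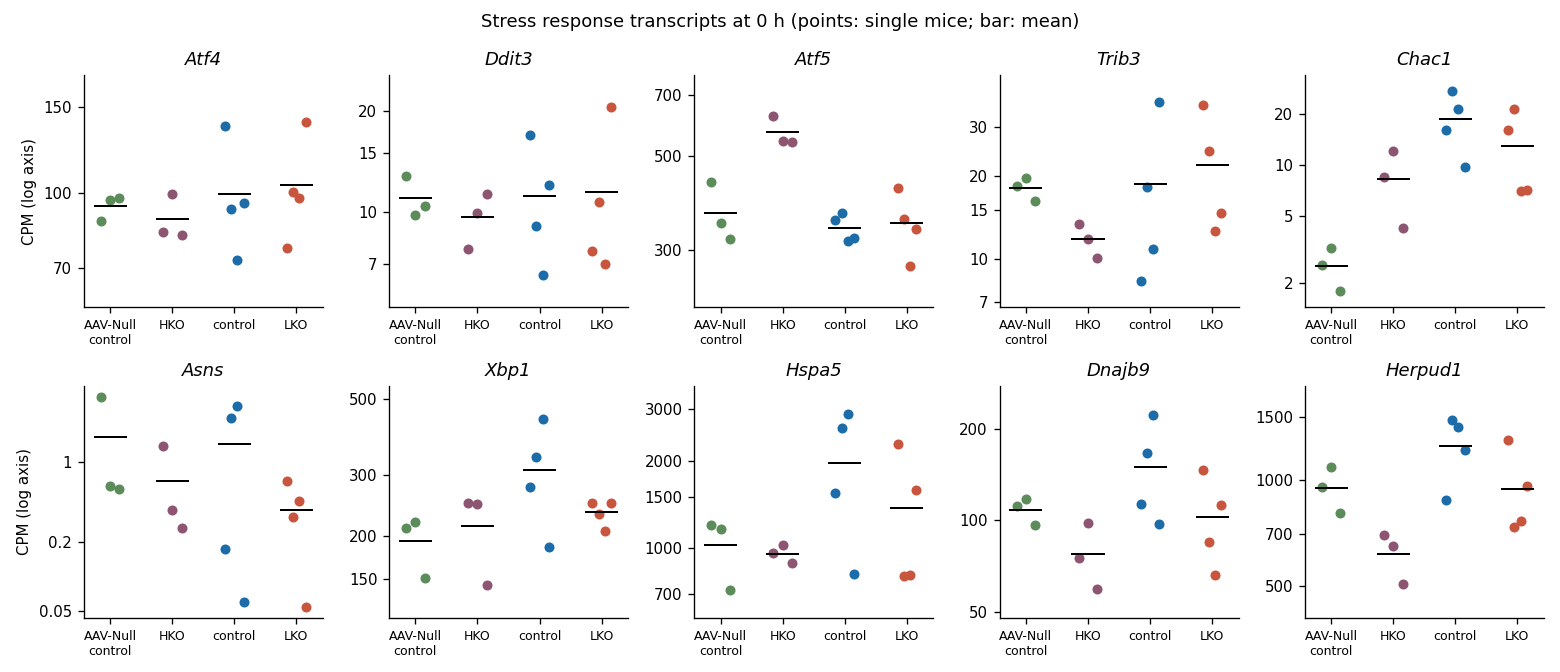
Levels of the 10 transcripts at 0 h, in CPM on a log axis, for 3 HKO-cohort control (AAV-Null), 3 HKO, 4 control and 4 LKO mice; each point is a mouse and each bar a group mean. HKO and its controls do not overlap for Atf5, Chac1, Trib3 and Herpud1, while control and LKO overlap for all 10 genes.

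Hspa5, Dnajb9 and Xbp1 were correlated among these 8 livers, as were Ddit3 and Atf4. Of 36 pairs among the 9 genes other than Asns, 4 had an adjusted p under 0.05 by an exact 2-sided permutation test of Pearson's r on log2 CPM, with Benjamini-Hochberg adjustment over the 36 pairs. Only 1 of them, Hspa5 and Dnajb9, also passed by Spearman's rho. These 4 pairs (11.1%) had r of at least 0.857, and 1.98% of all pairs among 12426 genes were as far from 0 in these mice, as were 5.18% of genes paired with Hspa5. Hspa5 and Dnajb9 had r = 0.934 (exact permutation p = 0.000446, adjusted p = 0.0161) and Spearman's rho = 0.952 (p = 0.00114, adjusted p = 0.0411), and r was 0.902 without the 2 mice farthest from the median of Hspa5. Hspa5 and Xbp1 had r = 0.857 (exact permutation p = 0.00293, adjusted p = 0.0414; rho = 0.833, p = 0.0154, adjusted p = 0.111) and r = 0.873 without those 2 mice. Xbp1 and Dnajb9 had r = 0.870 (exact permutation p = 0.00501, adjusted p = 0.0451; rho = 0.905, p = 0.00456, adjusted p = 0.0548), which was 0.572 without the 2 mice farthest in Xbp1. Ddit3 and Atf4 had r = 0.909 (exact permutation p = 0.00345, adjusted p = 0.0414; rho = 0.810, p = 0.0218, adjusted p = 0.131), which was 0.642 without the 2 mice farthest in Ddit3. Within genotypes, r of these pairs was 0.940, 0.838, 0.831 and 0.915. Ddit3 and Hspa5 had r = -0.204 (exact permutation p = 0.609, adjusted p = 0.731; rho = -0.310, p = 0.462, adjusted p = 0.743), and r was -0.535 without the 2 mice farthest in Ddit3.

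In the 6 mice of the HKO cohort, none of the 36 pairs had an adjusted p under 0.05. There r was 0.467 for Hspa5 and Dnajb9 (exact permutation p = 0.354, adjusted p = 0.742; rho = 0.771), 0.667 for Hspa5 and Xbp1 (exact permutation p = 0.153, adjusted p = 0.609; rho = 0.371), 0.421 for Xbp1 and Dnajb9 (exact permutation p = 0.401, adjusted p = 0.742; rho = 0.257) and 0.0244 for Ddit3 and Atf4 (exact permutation p = 0.946, adjusted p = 0.950; rho = -0.143). The strongest pair in this cohort was Trib3 and Herpud1, with r = 0.987 (exact permutation p = 0.00139, the smallest that 6 mice allow, adjusted p = 0.05; rho = 1, p = 0.00278, adjusted p = 0.1) and r = 0.983 without the 2 mice farthest in Trib3. Other measures moved with Hspa5 in the 8 mice of the LKO cohort. The percentage of reads left unmapped (4.11 to 20.6%) had r = 0.822 with log2 CPM of Hspa5, reads on genes had r = -0.706, and the summed sinusoidal endothelial markers (5 of 5 found, 177 to 227 CPM) had r = -0.842. The percentage of reads naming no gene had r = 0.737 and the summed macrophage markers (96.2 to 244 CPM) r = 0.67. The other cell-type sums had r from -0.467 (hepatocyte) to 0.368 (cholangiocyte). Their part in the shared variation was not tested.

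**Figure D2:**
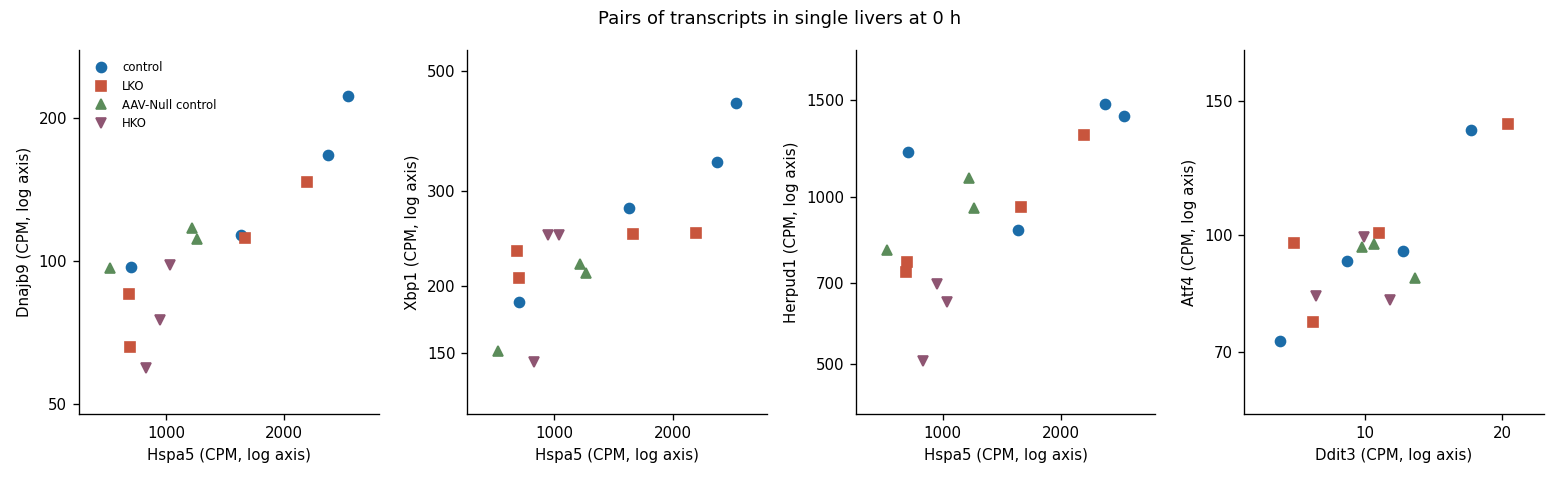
Pairs of transcripts in single livers at 0 h, each axis in CPM on a log scale; points are mice, with shape and color by group. Dnajb9 follows Hspa5 among the 4 control and 4 LKO mice (r = 0.934), and Atf4 follows Ddit3 (r = 0.909).

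Deletion in adult hepatocytes, which are already mostly polyploid, was compared with the AAV8-TBG-Null controls. None of the 9 genes tested passed (edgeR, adjusted p under 0.05 and at least 1.5-fold, as in all comparisons below), where 0.960% of 12397 genes did (0.419% upward and 0.540% downward), while 5 of the 9 had an unadjusted p under 0.05, as did 12.9% of all genes. In DESeq2, 4 of 10 passed (Atf5, Chac1, Trib3 and Herpud1), where 2.41% of 13458 genes did. Atf5, a stress-induced transcription factor (chromosome 7, 44812256 to 44816658), had 434, 347 and 319 CPM in the controls and 624, 544 and 542 CPM in HKO. The 2 groups did not overlap, and the log2 fold change was 0.65 (SE 0.13, edgeR adjusted p = 0.0564). Chac1 (chromosome 2, 119351229 to 119354381) had 2.56, 3.25 and 1.81 CPM in the controls and 8.45, 12.2 and 4.24 CPM in HKO. Every HKO mouse was above every control, with a log2 fold change of 1.72 (SE 0.39, edgeR adjusted p = 0.0797). Without HKO replicate 3, the lowest of the HKO mice, it was 2.03 (adjusted p = 0.0187).

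Trib3 (chromosome 2, 152337422 to 152344032) had 18.3, 19.6 and 16.3 CPM in the controls and 13.4, 11.8 and 10.1 CPM in HKO, with a log2 fold change of -0.60 (SE 0.15, edgeR adjusted p = 0.118). Herpud1, a membrane protein of ER-associated degradation (chromosome 8, 94386438 to 94395377), had 956, 1083 and 803 CPM in the controls and 699, 647 and 508 CPM in HKO, with a log2 fold change of -0.60 (SE 0.15, edgeR adjusted p = 0.118). Both were lower in every HKO mouse than in every control. In all, 4 of the 9 genes did not overlap between the groups, against 18.0% of all genes tested. The remaining genes overlapped, from Dnajb9 (log2 fold change -0.47, SE 0.17, edgeR adjusted p = 0.285) to Atf4 (-0.07, SE 0.11, edgeR adjusted p = 0.841). Asns was not tested, with 4 to 60 reads per mouse. The summed neutrophil markers (4 of 5 found) were 1.72 to 10.0 CPM in HKO and 0.580 to 2.21 CPM in the controls, with up to 2 of the markers at 0. The percentage of reads left unmapped also separated the groups, at 12.0, 12.5 and 8.95% in the controls and 5.72, 7.02 and 7.25% in HKO. The part of either was not tested.

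Lifelong deletion gave no call at 0 h among the 9 genes tested in edgeR or the 10 in DESeq2. Over all genes, edgeR called 0% of 12426 and DESeq2 called 3 of 17611. At an unadjusted p under 0.05 there were 0 of the 9 in edgeR and 1 of 10 in DESeq2. Over all genes there were 352 (2.83%) and 446 (2.53%). None of the 9 genes was free of overlap between LKO and control, against 1.85% of all genes. Mean levels of the ER genes were 1372 ± 711 CPM in LKO and 1963 ± 958 in control for Hspa5 (SD, n = 4 each), 102 ± 35.2 and 150.1 ± 56.8 for Dnajb9, and 939 ± 258 and 1241 ± 269 for Herpud1. The log2 fold changes were -0.51 (SE 0.42), -0.54 (SE 0.29) and -0.40 (SE 0.22), each with an edgeR adjusted p of 0.999. Ddit3, Atf4 and Atf5 had log2 fold changes of 0.04 (SE 0.38), 0.06 (SE 0.22) and 0.04 (SE 0.15).

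The effects of the 2 deletions were compared across the 14 mice. None of the 10 genes differed in edgeR, where 0% of 12945 genes did (579 at an unadjusted p under 0.05, among them 2 of the 10 genes) and DESeq2 called 19, none of them among the 10. The difference of the log2 effects, LKO minus HKO, was -2.24 for Chac1 (SE 0.64, edgeR adjusted p = 0.775) and -0.61 for Atf5 (SE 0.21, edgeR adjusted p = 0.884). The controls of the cohorts themselves were apart for Chac1, at 2.54 ± 0.723 CPM after AAV8-TBG-Null (n = 3) and 18.6 ± 7.42 CPM in the LKO cohort (n = 4), without overlap. Of the 10 genes Chac1 alone did not overlap between these controls, against 26.6% of 12945 genes. Virus, cohort and background cannot be told apart there.

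After APAP, each time point was compared with 0 h over both genotypes, with 2 pools against 8 mice. At 12 h 3 of the 10 genes passed, Ddit3 and Atf4 upward and Herpud1 downward, where 31.0% of 13855 genes did, 16.7% upward and 14.3% downward. At 24 h 4 passed (Atf4 and Asns up, Chac1 and Herpud1 down), where 25.6% of genes did, 13.9% upward and 11.7% downward. At 48 h 3 passed (Asns up, Chac1 and Herpud1 down), where 16.4% of genes did, 9.89% upward and 6.52% downward. At 72 h 2 passed (Chac1 and Herpud1 down), where 16.8% of genes did, 11.0% upward and 5.77% downward. At 96 h none passed in edgeR, where 0.462% of genes did (0.332% upward and 0.130% downward), while 3 had an unadjusted p under 0.05 (15.4% of all genes) and 2, Chac1 and Herpud1, passed in DESeq2 (2.69% of 12557 genes). From 12 to 72 h, DESeq2 called 4, 5, 4 and 2 of the 10, against 29.5%, 25.2%, 17.1% and 17.0% of all genes. From 12 to 96 h, both pools lay above all 8 mice for 2, 2, 0, 0 and 0 of the 10 genes, against 17.8%, 19.1%, 12.8%, 14.7% and 6.75% of 14501 genes. Both lay below all 8 mice for 1, 2, 2, 1 and 2 of the 10, against 16.7%, 16.8%, 10.9%, 12.1% and 7.19% of genes. These tests rest on 1 pool per genotype at each time, and pools of 3 mice vary less than single mice.

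**Figure D3:**
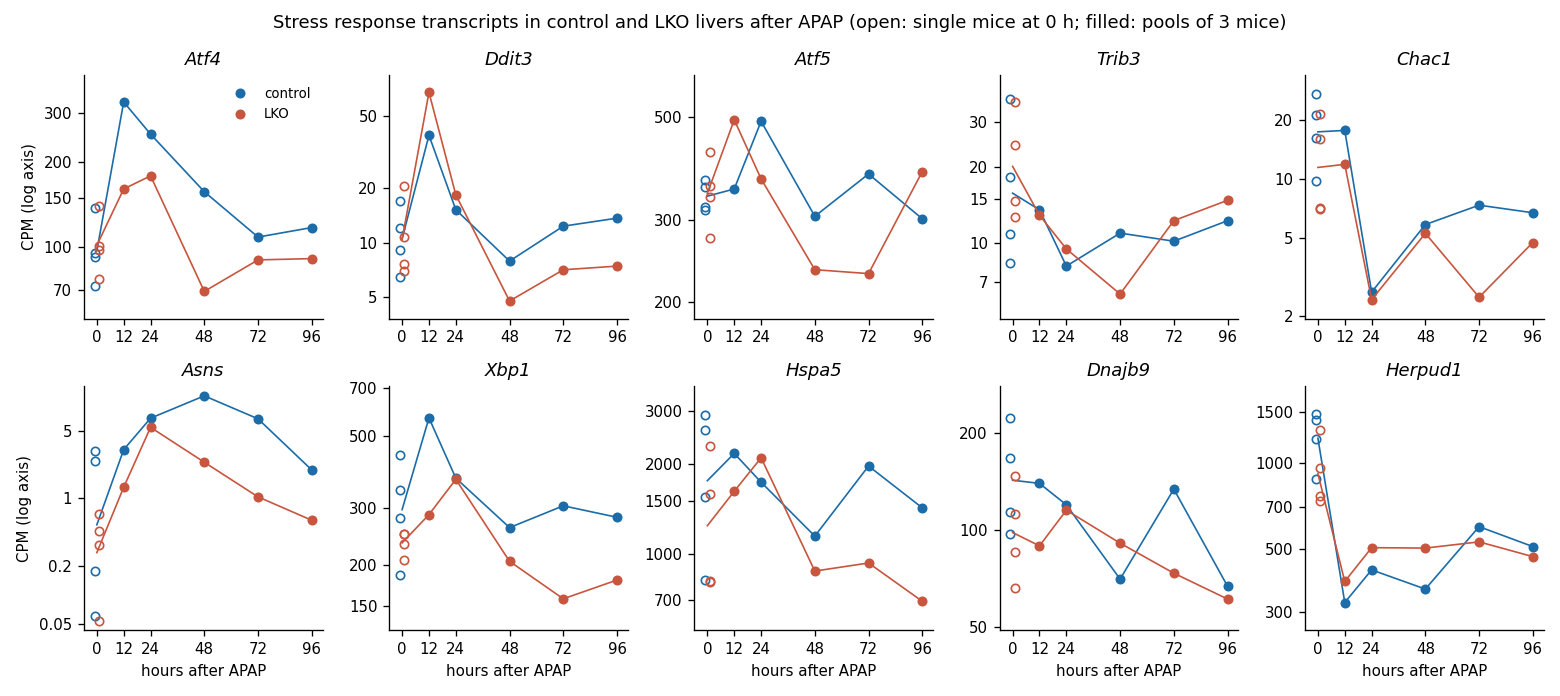
Level of each transcript in CPM on a log axis against hours after APAP, in control (blue) and LKO (red) livers; open circles are single mice at 0 h, filled circles pools of 3 mice, and lines start at the geometric mean at 0 h. Ddit3 peaks at 12 h in both genotypes, Asns is highest at 48 h in control and at 24 h in LKO, and Herpud1 is below all 8 mice at each time.

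Ddit3, which encodes the transcription factor CHOP (chromosome 10, 127290774 to 127296288), rose at 12 h. It had 17.0, 9.10, 6.49 and 12.1 CPM in the control mice and 7.67, 10.7, 6.99 and 20.6 CPM in the LKO mice at 0 h. At 12 h it had 39.1 CPM in the control pool and 67.4 CPM in the LKO pool, both above all 8 mice. The rise was 4.75-fold (log2 2.25, SE 0.35, edgeR adjusted p = 0.000176), and it passed without the LKO pool (log2 1.65, edgeR adjusted p = 0.0178) and without the control pool (log2 2.68). At 24 h the pools had 15.2 and 18.3 CPM, within the range at 0 h, and the later pools had 4.77 to 13.7 CPM. No later change passed (log2 0.56 at 24 h, edgeR adjusted p = 0.288; -0.85 at 48 h, adjusted p = 0.179).

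Atf4, the translationally controlled factor of the integrated stress response (chromosome 15, 80255184 to 80257541), had 72.6 to 140 CPM in the 8 mice at 0 h. At 12 h it had 329 CPM in the control pool and 161 CPM in the LKO pool, and at 24 h 252 and 179 CPM, all above the 8 mice. The changes were 2.32-fold at 12 h (log2 1.22, SE 0.26, edgeR adjusted p = 0.00212) and 2.08-fold at 24 h (log2 1.05, SE 0.26, edgeR adjusted p = 0.0068). Without the control pool the change at 12 h was 0.79 and did not pass (edgeR adjusted p = 0.131). At 24 h it did not pass without the control pool (log2 0.97, adjusted p = 0.0978) or without the LKO pool (1.15, adjusted p = 0.0652). From 48 h the pools had 69.4 to 157 CPM, and the fitted changes were between -0.05 and 0.09.

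Asns, the asparagine synthetase and an ATF4 target (chromosome 6, 7675169 to 7693254), passed at 24 and 48 h. At 0 h it had 0.176, 2.42, 3.12 and 0.0604 CPM in the control mice and 0.691, 0.329, 0.462 and 0.0540 CPM in the LKO mice, from 1 to 36 reads. The control pools had 3.18, 6.73, 11.5, 6.63 and 1.96 CPM from 12 to 96 h, and the LKO pools 1.30, 5.41, 2.36, 1.03 and 0.592 CPM. Only at 24 h did both pools exceed all 8 mice; at 12, 48 and 72 h the control pool alone did. The log2 fold change was 3.18 at 24 h (SE 0.70, edgeR adjusted p = 0.00324) and 2.87 at 48 h (SE 0.69, edgeR adjusted p = 0.00931). At 72 h it was 1.95 (SE 0.73, edgeR adjusted p = 0.0733), and it passed there without control replicate 3 (2.36, adjusted p = 0.0327). Over the alternative settings the value at 24 h ranged from 2.26 to 3.88. Without the LKO pool the value at 24 h was 2.26 (adjusted p = 0.125), and without the control pool that at 48 h was 2.49 (adjusted p = 0.195).

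Chac1, which has a CARE in its promoter like Asns, fell. It had 9.79 to 27.2 CPM in the control mice and 7.05 to 21.5 CPM in the LKO mice at 0 h, and 17.7 and 11.9 CPM in the control and LKO pools at 12 h, within that range. At 24 h it had 2.64 and 2.42 CPM, below all 8 mice, a 6.07-fold fall (log2 -2.60, SE 0.49, edgeR adjusted p = 0.00121). The pools then had 5.85 and 5.28 CPM at 48 h, 7.35 and 2.49 CPM at 72 h and 6.72 and 4.74 CPM at 96 h. The fold change was 2.77-fold downward at 48 h (edgeR adjusted p = 0.0309) and 3.39-fold at 72 h (edgeR adjusted p = 0.0132). Without the control pool the log2 value was -1.25 at 48 h (adjusted p = 0.286) and -2.41 at 72 h (adjusted p = 0.0533), and without the LKO pool it was -1.71 at 48 h (adjusted p = 0.0863) and -1.30 at 72 h (adjusted p = 0.16). At 96 h the value was -1.46 (SE 0.45, edgeR adjusted p = 0.141).

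Trib3 and Atf5, also targets of this branch, did not pass at any time in edgeR. Trib3 had 8.11 to 13.5 CPM in the control pools and 6.29 to 14.8 CPM in the LKO pools, against 8.38 to 37.0 CPM at 0 h. Its lowest fitted changes were -1.20 at 24 h (SE 0.48, edgeR adjusted p = 0.0693) and -1.22 at 48 h (SE 0.48, edgeR adjusted p = 0.088). Both passed in DESeq2, and at both times without control replicate 1. Atf5 had 303 to 491 CPM in the control pools and 230.5 to 494 CPM in the LKO pools, with fitted changes between -0.35 and 0.32.

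Herpud1 fell and stayed low in both genotypes. It had 874, 1475, 1406 and 1209 CPM in the control mice and 1296, 734, 766 and 959 CPM in the LKO mice at 0 h. The control pools had 325, 422, 362, 597 and 509 CPM from 12 to 96 h and the LKO pools 384, 504, 503, 528 and 469 CPM, so that all 10 pools were below all 8 mice. The fall was 3.03-fold at 12 h (log2 -1.60, SE 0.28, edgeR adjusted p = 0.00051), 2.34-fold at 24 h (adjusted p = 0.00369), 2.49-fold at 48 h (adjusted p = 0.0041) and 1.93-fold at 72 h (adjusted p = 0.0216). At 96 h the value was 2.22-fold (edgeR adjusted p = 0.0649; DESeq2 adjusted p = 0.00154). Without the control pool the log2 changes at 24 and 48 h were -1.03 and -1.02 and did not pass (adjusted p = 0.0964 and 0.131). At 72 h, where the value with all libraries was -0.95, it was -0.99 without the control pool and -0.91 without the LKO pool, and neither passed (adjusted p = 0.229 and 0.13).

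No change of Hspa5 or Dnajb9 passed in edgeR at any time, and both had a wide range at 0 h. Hspa5 had 2164, 1734, 1145, 1964 and 1423 CPM in the control pools and 1616, 2092, 875, 931 and 693 CPM in the LKO pools from 12 to 96 h, and of these only the LKO pool at 96 h lay outside the range of the 8 mice (805 to 2899 CPM). Its fitted changes were between -0.71 and 0.27, with standard errors of 0.41 to 0.44. Dnajb9 had 139, 119, 70.2, 134 and 66.8 CPM in the control pools and 89.1, 115, 90.8, 73.3 and 60.9 CPM in the LKO pools. Of these only the LKO pool at 96 h lay outside the range of the 8 mice (65.8 to 223 CPM). The lowest fitted change of Dnajb9 was at 96 h (log2 -0.96, SE 0.33, edgeR adjusted p = 0.186). Xbp1, the target of IRE1 splicing (chromosome 11, 5520659 to 5525893), had 568 CPM in the control pool at 12 h, above all 8 mice (186 to 437 CPM), and 286 CPM in the LKO pool, within them. Its change at 12 h was 0.61 (SE 0.24, edgeR adjusted p = 0.055), and it passed in DESeq2 (adjusted p = 0.0384) and, in edgeR, with RLE scaling (adjusted p = 0.0459), with at least 10 counts required in every library (0.0432) and without control replicate 3 (0.0237).

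**Figure D4:**
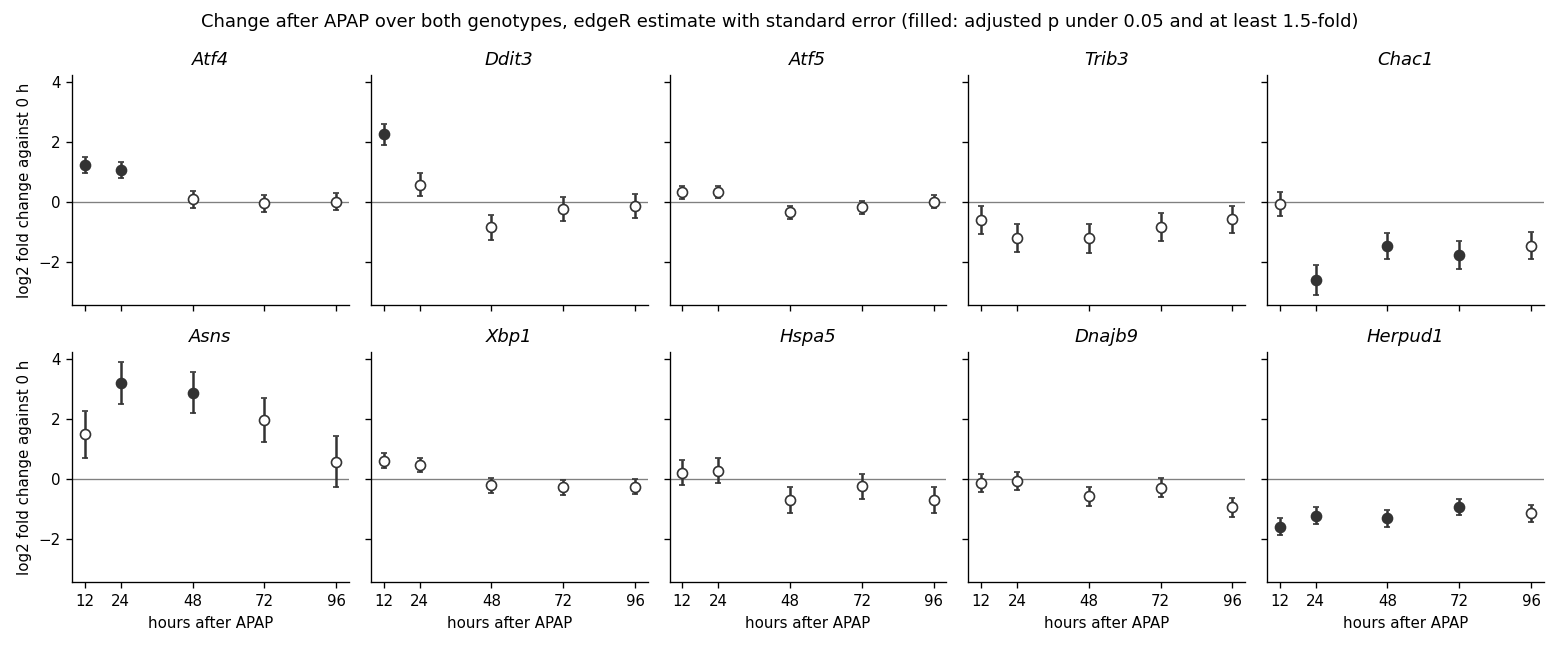
Log2 fold change of each transcript against 0 h over both genotypes, by hours after APAP, with edgeR's estimate and standard error; filled points passed the test. Ddit3 and Atf4 are up at 12 h (2.25 and 1.22), Asns at 24 and 48 h (3.18 and 2.87), and Herpud1 is down from 12 to 72 h.

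Other genes of the pathway, from 4 lists, are given by branch. Over all genes tested, 16.7% rose and 14.3% fell at 12 h, 13.9% and 11.7% did so 24 h after APAP, 9.89% and 6.52% after 48 h, 11.0% and 5.77% after 72 h, and 0.332% and 0.130% after 96 h. Of 22 tested targets of ATF4 and CHOP other than the 10 genes, 10 rose and 0 fell at 12 h, 10 rose and 3 fell at 24 h, 6 rose and 2 fell at 48 h, 8 rose and 1 fell at 72 h, and only Sesn2 passed, downward, at 96 h (log2 -1.29, SE 0.28, edgeR adjusted p = 0.0492). From 12 to 96 h the median log2 change of this list was 0.87, 0.79, 0.36, 0.10 and -0.22, against -0.03 to 0.00 over all genes. Atf3, a stress-induced transcription factor, rose from 1.64 to 8.14 CPM at 0 h to 192 and 242 CPM in the control and LKO pools at 12 h (log2 6.18, SE 0.37, edgeR adjusted p = 2.77e-08). Slc7a11, the cystine transporter, had 0 or 1 read in each mouse at 0 h, and 3.18 and 7.98 CPM at 12 h and 6.13 and 15.2 CPM at 24 h. Psat1, of serine synthesis, went from 0.329 to 0.952 CPM at 0 h to 26.7 and 30.3 CPM at 24 h (log2 5.68, SE 0.35, edgeR adjusted p = 4.76e-08). Slc38a2, an amino acid transporter (log2 -1.61, SE 0.43, edgeR adjusted p = 0.011), and Shmt2, of mitochondrial folate metabolism (-1.35, SE 0.18, edgeR adjusted p = 9.68e-05), fell at 24 h. Sesn2 at 96 h passed with neither pool alone (edgeR adjusted p = 0.552 without the control pool and 0.189 without the LKO pool), and Slc38a2 at 24 h did not pass without the control pool (0.199). Atf3 at 12 h was log2 5.44 without the LKO pool (edgeR adjusted p = 1.08e-06).

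Among the other lists, the share called at 12 h was near that of all genes tested (31.0%). Of 13 sensors and regulators, 4 rose and 0 fell at 12 h, among them Ppp1r15a, a phosphatase subunit that reverses eIF2α phosphorylation (log2 1.96, SE 0.26, edgeR adjusted p = 4.49e-05), and Ern1, which encodes IRE1 (1.59, SE 0.38, edgeR adjusted p = 0.00462). At 24 h 2 rose and 2 fell, at 48 h none passed, and at 72 h Creb3l3 alone passed, downward (-0.82, SE 0.18, edgeR adjusted p = 0.00445). The medians of this list from 12 to 96 h were 0.41, -0.10, -0.27, -0.31 and -0.39. Of 16 ER chaperones and foldases, 0 rose and 5 fell at 12 h, among them the oxidase Ero1lb (-1.18, SE 0.38, edgeR adjusted p = 0.0241) and the disulfide isomerase Pdia6 (-1.13, SE 0.34, edgeR adjusted p = 0.0175). At 24 h 1 fell (Ero1lb), at 48 h 2 fell (Hyou1 and Ero1lb), and none passed at 72 or 96 h. The medians were -0.79, 0.11, -0.41, -0.06 and -0.43. Of 19 genes of translocation, ER-associated degradation and transport, 1 rose and 4 fell at 12 h, with the largest decreases in Derl2 (-1.53, SE 0.20, edgeR adjusted p = 4.38e-05) and Sec61g (-1.33, SE 0.30, edgeR adjusted p = 0.00301). At 24 h 2 rose and 2 fell, at 48 h 0 rose and 3 fell, at 72 h 1 rose and 1 fell, and none passed at 96 h. The medians were -0.38, 0.14, -0.21, -0.18 and -0.12. Without the control pool of that time, Ern1 (log2 0.68, edgeR adjusted p = 0.372), Pdia6 (adjusted p = 0.225) and Sec61g (0.0979) did not pass at 12 h, nor did Creb3l3 at 72 h (0.171). Ern1 was 2.18 without the LKO pool at 12 h (edgeR adjusted p = 0.00258). Ero1lb at each of its times and Hyou1 passed with neither pool alone.

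The genotypes were compared after APAP over the 5 times with time as a block. With 1 pool per genotype and time, the times served as replicates. These p-values measure how the genotype difference varied between times, not the spread between mice. None of the 10 genes passed in edgeR, where 0.579% of 12782 genes did (0.250% upward and 0.329% downward), and 5 had an unadjusted p under 0.05, as did 17.9% of all genes. In DESeq2 3 passed, Asns, Atf4 and Xbp1, where 4.40% of 13510 genes did. Asns was lower in the LKO pool at all 5 times, by 1.22, 0.31, 2.22, 2.55 and 1.54 on the log2 scale (with a prior count of 2) from 12 to 96 h. Its fitted log2 fold change was -1.65 (SE 0.36, edgeR adjusted p = 0.0703), with 22, 105, 42, 22 and 11 reads in the LKO pools. Atf4 was lower at all 5 times, at 161, 179, 69.4, 89.9 and 90.9 CPM in LKO and 329, 252, 157, 108 and 117 CPM in control, with a log2 fold change of -0.68 (SE 0.18, edgeR adjusted p = 0.106). Xbp1 was lower at all 5 times, at 286, 367, 205, 157 and 180 CPM against 568, 370.5, 261, 304 and 281 CPM, with a log2 fold change of -0.60 (SE 0.18, edgeR adjusted p = 0.139), and at 24 h the pools were nearly equal.

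Chac1 was also lower in LKO at all 5 times (log2 fold change -0.59, SE 0.25, edgeR adjusted p = 0.249), and Hspa5 at 4 of 5 (-0.54, SE 0.22, edgeR adjusted p = 0.232). At 0 h, before APAP, the log2 fold change was -0.52 for Chac1 (SE 0.40), -0.51 for Hspa5 (SE 0.42) and -0.40 for Xbp1 (SE 0.22), each with an edgeR adjusted p of 0.999. For Atf4 it was 0.06 (SE 0.22), and Asns was not tested at 0 h. Whether the differences after APAP exceed those at 0 h was not tested. In all, 4 of the 10 genes were lower in LKO at every time, against 8.49% of all genes tested, and none was higher at every time, against 8.68% (17.2% on either side). From 12 to 96 h the log2 ratio had a median of -0.50, -0.03, -0.38, -0.83 and -0.43 over the 10 genes, against -0.02 to 0.02 over all genes. Herpud1 (log2 fold change 0.13, SE 0.16) and Trib3 (-0.03, SE 0.21) were on either side. The median log2 fold change was -0.502 for the other ATF4 and CHOP targets and -0.101 for sensors and regulators. It was -0.16 for chaperones and foldases and -0.165 for translocation, degradation and transport, against -0.0142 over all genes. Of the 4 pathway lists, Eif4ebp1, a translational repressor and ATF4 target, alone passed (-0.87, SE 0.15, edgeR adjusted p = 0.0417). Its call was lost without the pools at 12, 24, 48 or 72 h (-0.77 to -0.91, edgeR adjusted p from 0.0843 to 0.126), where 9 to 18 genes in all passed. It was kept without those at 96 h, where 177 genes in all passed, against 74 with all pools. Marker sums of other cell types also differed between the pools. Cholangiocyte markers (5 of 5 found, at most 1 at 0) summed to 172, 55.5, 215.5, 68.4 and 21.6 CPM in control from 12 to 96 h and to 36.0, 50.5, 86.5, 43.4 and 21.4 CPM in LKO. This sum came mostly from Sox9 and Spp1, which reached 125 and 191 CPM over the 24 libraries. Krt19, Krt7 and Epcam did not exceed 2.65, 1.75 and 5.24 CPM. Hepatocyte markers at 12 h summed to 100350 CPM in control and 59760 CPM in LKO, neutrophil markers at 48 h to 30.5 and 9.32 CPM, stellate cell markers at 72 h to 689 and 338 CPM and macrophage markers at 96 h to 324 and 126 CPM. Other sums were higher in LKO, with neutrophil markers at 13.3 CPM in control and 28.8 CPM in LKO at 24 h, macrophage markers at 162 and 208 CPM at 48 h, and stellate cell markers at 17.2 and 24.5 CPM at 12 h. Their part was not tested.

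**Figure D5:**
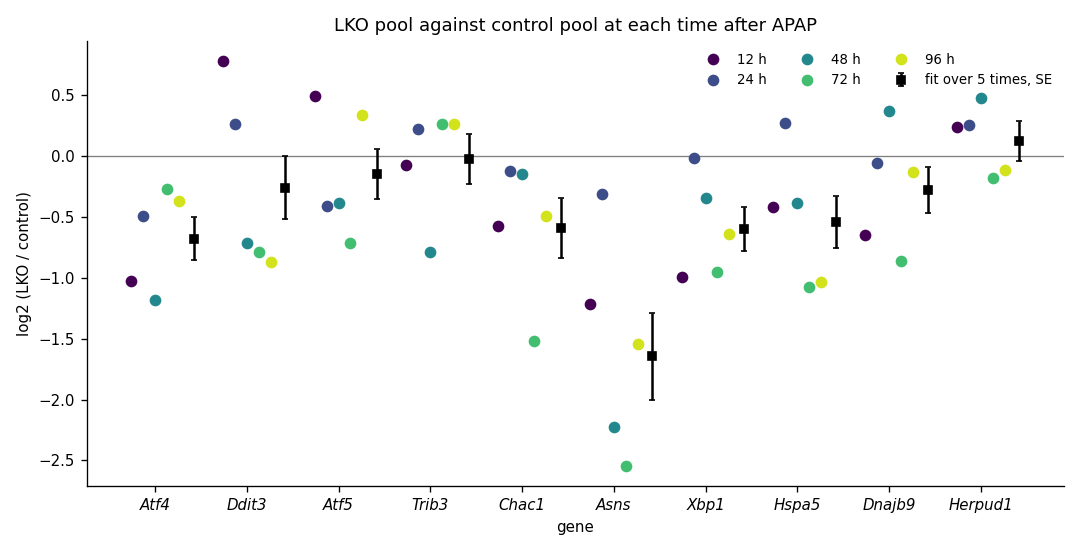
Log2 ratio of the LKO pool to the control pool for each transcript, with 1 point per time after APAP and, as a black square, edgeR's fit over the 5 times with its standard error. Atf4, Chac1, Asns and Xbp1 lie below 0 at all 5 times, and Ddit3 is above 0 at 12 and 24 h and below it later.

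The genotype difference at 12 to 48 h was compared with that at 72 to 96 h, again with the times as replicates. None of the 10 genes passed in edgeR, where 0.149% of 12782 genes did (0.0626% upward and 0.0861% downward), and 2 had an unadjusted p under 0.05, as did 10.5% of all genes. DESeq2 also called 0 of the 10. Ddit3 was higher in the LKO pool at 12 and 24 h (log2 ratios 0.78 and 0.27) and lower at 48, 72 and 96 h (-0.72, -0.79 and -0.87), and the early minus late difference was 0.98 (SE 0.43, edgeR adjusted p = 0.462). Hspa5 had log2 ratios of -0.42, 0.27 and -0.39 at the early times and -1.08 and -1.04 at the late times, a difference of 0.87 (SE 0.34, edgeR adjusted p = 0.427). The median early minus late difference was 0.961 for chaperones and foldases and 0.418 for translocation, degradation and transport. It was 0.00294 for sensors and regulators and -0.224 for the other ATF4 and CHOP targets, against 0.0104 over all genes. Among the 4 lists, Ern1 alone passed (-2.58, SE 0.32, edgeR adjusted p = 0.0208). Its call was lost without the pools at 12 h (-2.34, edgeR adjusted p = 0.057), 24 h (-2.79, 0.0681), 72 h (-2.63, 0.0983) or 96 h (-2.50, 0.125), where 0, 0, 7 and 4 genes in all passed, against 19 with all pools. Where 0 passed in edgeR, 1299 and 1343 genes had an unadjusted p under 0.05. Ern1 had 162 CPM in the control pool and 76.4 CPM in the LKO pool at 12 h, and 11.1 and 44.8 CPM at 96 h.

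The genes whose log2 CPM followed these transcripts most closely over the 18 libraries of the LKO cohort were listed from 13328 genes, as a description across libraries that share the APAP time course. For Ddit3 they were Ftl1, a ferritin light chain (r = 0.902), Lor (r = 0.895) and Bag3, a co-chaperone of HSP70 (r = 0.885). For Asns they were Gm19705 (r = 0.908), Capza1, an actin capping protein (r = 0.907), and Agfg1 (r = 0.902). For Hspa5 they were Ubfd1 (r = 0.899), Tmem214 (r = 0.882) and the ER co-chaperone Dnajb11 (r = 0.882).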

How the data were processed

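Whole-liver RNA-seq libraries of 14 single mice and 10 pools of 3 mice were analyzed. The authors trimmed the reads, used STAR with the mm10 genome and deposited read counts for 24411 genes, not normalized; the annotation version is not given in the sources used here. Of the deposited counts, those made without regard to strand were taken, and the 4 entries naming no gene (18.7% to 39.9% of reads per library) were left out. After filterByExpr and TMM scaling, each gene was tested by the quasi-likelihood F-test of edgeR 4.0.16 (R 4.3.3, limma 3.58.1), with Benjamini-Hochberg adjustment over all genes kept. A call needed an adjusted p-value under 0.05 and at least a 1.5-fold change; p-values are 2-sided. Levels are CPM scaled by TMM over the 24 libraries. Fitted fold changes use edgeR's default prior count, and plotted log2 levels a prior count of 2. The sources describe single mice at 0 h, so p-values there measure the spread between mice. DESeq2 1.42.0, other scalings, filters, a stranded column, blocks and leaving out each library were alternatives. Gene coordinates and exon lengths are from GENCODE vM21 (GRCm38). The 10 genes and the pathway and marker lists were chosen with earlier results of these data known. Named genes are the 10 genes, E2f7 and E2f8, at most the 2 largest increases and decreases called per list and comparison, and the 3 genes most similar to Ddit3, Asns and Hspa5. The tests were checked on simulated counts.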

Additional observations from a re-analysis of the deposited data

How the results depend on the processing

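The 10 genes had 1624 fitted values under alternatives: 1582 stayed on their side of the threshold (64 of these, without a call, changed sign), 14 lost a call, 28 gained one, and no called value reversed. Of the 10 genes, HKO against control gave 0 calls in edgeR but 4 with DESeq2, 1 with library size alone, 3 without a filter on low counts, and 0 to 1 when a mouse was left out. Over all genes, 119 were called in edgeR, 134 with library size alone, 255 without a filter and 54 to 297 when a mouse was left out. LKO against control over 12-96 h gave 0 calls but 3 with DESeq2 and 1 without a filter. Without a filter, 337 of all 18063 genes were called (1.87%). After APAP, leaving out a library moved the count between 2 and 5 at 24 h (4 with all), between 0 and 4 at 48 h (3 with all) and between 0 and 3 at 72 h (2 with all). The count was 0 at 48 h without the control pool and at 72 h without either pool, where 3.54%, 3.59% (no control pool) and 12.7% (no LKO pool) of all genes were called, against 16.4% and 16.8%. At 24 h 11.0% and 8.17% were called without the control and LKO pool, against 25.6%. At 96 h it was 0 in edgeR and 2 with DESeq2. With the replicate number as a block, HKO against control gave 3 calls (Atf5, Chac1 and Herpud1), and 263 genes in all against 119. Same-numbered mice had correlations of 0.198, -0.0307 and 0.105 in the HKO cohort and -0.379, -0.188, 0.0982 and 0.223 in the LKO cohort. Not every mouse correlated best with its own number. So few mice cannot settle whether the numbers pair them. Over all genes, calls with DESeq2 in HKO were 324, and calls in edgeR and DESeq2 were 74 and 595 over 12-96 h, 19 and 163 for early against late, and 64 and 338 at 96 h. Library size alone moved the share of calls that were higher from 43.7% to 56.7% in HKO, from 43.2% to 71.4% over 12-96 h, from 54.3% to 69.2% at 24 h, from 60.3% to 81.6% at 48 h and from 65.6% to 80.7% at 72 h, and the median log2 change of all genes at 48 h from -0.00235 to 0.198. Depth limits Asns at 0 h, and the cause of the differences between settings was not tested.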
